A study of Mus musculus with 16 samples.

Results

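The genes described here are 42 genes of mitosis, the stage in which a cell condenses its duplicated chromosomes, attaches them to the spindle, separates them and divides. They were taken by symbol from a list of cyclins, kinases, checkpoint and kinetochore proteins, motors, cytokinesis factors and anaphase regulators, and all 42 were found among 23234 named genes. Their transcripts were measured in 16 libraries from 6 sorted groups of mouse spleen B cells. The donor cells carried Bcl6-YFP(KI/+), a reporter of the germinal centre regulator Bcl6, and B1-8hi(KI/+), a knocked-in antibody gene whose product binds the hapten NP with high affinity, on the strain C57BL/6. Naive donor cells were given to wild-type CD45.1+ mice, which then received NP-CGG in alum into the peritoneum. Donor cells were sorted on day 10 from splenocytes pooled over 9 recipients.

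All gates held CD45.2+ donor cells that bound NP, had switched to IgG1 and lacked CD138, a plasma cell marker. LZ, with 3 libraries, held light zone cells of the germinal centre, gated CD38- CD86hi CXCR4lo. Fraction 2 (2 libraries) and Fraction 3 (3 libraries) were the Bcl6-YFPhi cells within that gate. Fraction 2 was CD69hi and is described by the labels as recycling-prone, and Fraction 3 was CD69lo and is described as under selection. Fraction 5 (3 libraries), Fraction 6 (2 libraries) and Fraction 7 (3 libraries) were CD38+ GL7-. Fraction 5 was Bcl6-YFPhi Efnb1hi and named pro-memory, Fraction 6 was Bcl6-YFPlo Efnb1hi and named pre-memory, and Fraction 7 was Bcl6-YFPlo Efnb1lo and named mature memory. Every group carried the same reporter, receptor and immunisation, no group was sorted by cell cycle phase, and no CXCR4hi dark zone gate was analysed here. All groups were sorted on the same day. Falls, drops and steps between them below are differences between gates, not changes followed in cells over time. Whether the libraries within a group stem from different pools of animals is not stated, and the tests therefore speak only to the scatter among the libraries themselves.

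As background, entry into mitosis is driven by Cdk1 bound to its cyclins, and the kinases Plk1, Aurka and Aurkb organise the spindle and correct attachments to the kinetochores, the protein plates on the centromeres. The spindle checkpoint holds the cell until all kinetochores are attached. The anaphase-promoting complex with Cdc20 then marks securin and cyclin B for destruction, which frees separase to cut the cohesin rings between sister chromatids. Most genes of this programme are transcribed late in the cell cycle and are repressed in resting cells, where the DREAM complex of MuvB proteins, E2f4 and pocket proteins sits on their promoters, while Mybl2 and Foxm1 join MuvB in dividing cells. In the germinal centre, cells that receive help in the light zone go on to divide, and memory B cells are largely quiescent.

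The promoters of these genes were read for the elements through which DREAM and its partners are known to act. The sequences come from RefSeq on the build GRCm38.p6 and run from 250 bases before to 50 bases after a start site. Of the 42 genes 35 had an entry, with 38 promoters in all, and the genes with none were Ccna2, Cdc25c, Tpx2, Aurkb, Incenp, Stmn1 and Kif20a. The letters searched, on both strands, were CCAAT, the box bound by NF-Y, TTTGAA and its variant TTCGAA, the cell cycle homology region, and GCGGGAA and GCGCGAA, forms of the E2F site. Each motif was counted on its own, and a match to one may overlap a match to another. The stretches printed run from 110 bases before the start site to 30 bases from it on, with matches in capitals. The first set was chosen because a CCAAT box and a cell cycle homology region lie together close to the start. It holds Cdk1 (chr10:69352883-69353022, minus strand), Ccnb2, which encodes cyclin B2 (chr9:70421525-70421664, minus strand), Cdc20, the activator of the anaphase-promoting complex (chr4:118437314-118437453, minus strand), Ube2c, a ubiquitin-conjugating enzyme of that complex (chr2:164769819-164769958, plus strand), and Top2a, the topoisomerase that untangles sister chromatids (chr11:99024160-99024299, minus strand).
Cdk1: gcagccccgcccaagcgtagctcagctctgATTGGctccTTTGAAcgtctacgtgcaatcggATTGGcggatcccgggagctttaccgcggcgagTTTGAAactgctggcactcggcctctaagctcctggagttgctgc
Ccnb2: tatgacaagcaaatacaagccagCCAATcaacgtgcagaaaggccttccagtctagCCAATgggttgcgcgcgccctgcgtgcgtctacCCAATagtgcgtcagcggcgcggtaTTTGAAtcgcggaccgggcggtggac
Cdc20: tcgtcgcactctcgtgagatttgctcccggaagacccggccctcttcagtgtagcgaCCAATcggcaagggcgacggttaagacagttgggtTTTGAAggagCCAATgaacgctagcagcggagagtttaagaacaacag
Ube2c: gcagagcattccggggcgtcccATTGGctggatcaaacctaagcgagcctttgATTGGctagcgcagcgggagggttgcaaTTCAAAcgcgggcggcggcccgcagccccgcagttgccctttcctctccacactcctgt
Top2a: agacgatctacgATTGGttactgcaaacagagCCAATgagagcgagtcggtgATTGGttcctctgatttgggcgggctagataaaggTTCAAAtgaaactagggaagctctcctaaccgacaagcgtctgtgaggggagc

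The second set shows the genes whose transcripts changed least from LZ to Fraction 7, as given further on: Bub3, a checkpoint protein (chr7:131560260-131560399, plus strand, the upstream one of its listed starts), Cdc25b, a phosphatase that activates Cdk1 (chr2:131186838-131186977, plus strand), and Pttg1, the securin that restrains separase (chr11:43425952-43426091, minus strand).
Bub3: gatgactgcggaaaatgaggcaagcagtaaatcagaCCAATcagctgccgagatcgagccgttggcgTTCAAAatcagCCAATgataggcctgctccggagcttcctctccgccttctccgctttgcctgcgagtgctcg
Cdc25b: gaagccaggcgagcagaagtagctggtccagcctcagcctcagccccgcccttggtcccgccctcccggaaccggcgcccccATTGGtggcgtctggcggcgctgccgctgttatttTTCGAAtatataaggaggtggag
Pttg1: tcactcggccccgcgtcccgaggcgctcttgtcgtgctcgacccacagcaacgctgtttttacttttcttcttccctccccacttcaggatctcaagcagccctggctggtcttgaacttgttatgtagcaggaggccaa
The Bub3 and Cdc25b stretches hold both kinds of element, and the Pttg1 stretch holds none. The same stretch at the other listed start of Bub3 (chr7:131560384-131560523, plus strand) holds none either. The whole listed promoters of Birc5, Nuf2, Nusap1 and Tacc3 held none of the motifs either, and the transcripts of those 4 genes were called lower in Fraction 6 than in Fraction 5.

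Over all 38 promoters, 78.9% held CCAAT at least once, against 38.7% of the 9965 promoters of tested genes and 37.4% of all 32851 promoters listed. TTTGAA or TTCGAA was found in 78.9%, against 14.2% for tested genes and 19.2% of all. Both a CCAAT and one of these were found in 71.1%, against 6.05% and 7.52%. GCGGGAA or GCGCGAA was found in 5.26%, against 11.3% and 6.0%. The median position was 66 bases before the start site for the 72 CCAAT matches and 16.5 bases before it for the 40 matches of TTTGAA or TTCGAA. Bub3, Ect2 and Prc1 had listed starts with overlapping windows, and a match in the shared bases was counted at each start. A match describes letters, not binding, and whether these elements had a part in the transcript changes was not tested.

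Transcript levels are FPKM, fragments scaled to the length of the transcript and to the number of mapped fragments of the library, which say nothing of the amount of RNA per cell. In bulk RNA of this kind, fewer dividing cells and less RNA of these genes in each cell cannot be told apart. A gene was tested if 2 or more libraries had it at 1 FPKM or above, which left 11266 genes and kept all 42 mitosis genes. Changes are differences of log2(FPKM + 1), a scale that understates the change of genes near or under 1 FPKM. A gene was called when its p-value from limma, a linear model fitted to all tested genes at once, was under 0.05 after Benjamini-Hochberg adjustment over those genes.

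The FPKM of a library summed to 416741 to 492578, and the depth read from the steps of low values was 0.921 to 1.21 of that of the first LZ library. Bcl6 transcripts followed the gates, at 145 to 205 FPKM in LZ and the Bcl6-YFPhi groups, 70.2 to 75.3 in Fraction 6 and 15 to 20.5 in Fraction 7. The B cell gene Cd79a (657 to 1503 FPKM) was high in every library, whereas the T cell gene Cd3e and the macrophage gene Cd14 were each at 0 in every library of 5 groups. Other genes of those marker lists were present, with T cell list sums of 29.5 to 36.1 FPKM in LZ and 6.81 to 9.62 in Fraction 7, nearly all Lck, and macrophage and dendritic cell list sums of 0.137 to 2.88 and 14.3 to 18. Some libraries stood apart. Library 2 of Fraction 5 was the highest of its group for 40 of the 42 mitosis genes, against 46.5% of all tested genes. Libraries 2 and 3 of Fraction 7 held more of some plasma cell transcripts than library 1. Sdc1, which encodes CD138, read 4.44 and 4.51 FPKM against 0.502 in library 1, and Jchain 296 and 292 against 46.9. Xbp1 (84.9 and 81.3 against 34) and Prdm1 (2.00 and 1.97 against 1.37) went the same way. Irf4 (20.6 and 21.4 against 19.5) differed little, Tnfrsf17 (2.44 and 4.73 against 3.02) was mixed and Mzb1 (211 and 211 against 235) was lower. Library 1 was thus not free of transcripts of this list. Results that rest on these libraries are given with and without them.

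Most mitosis genes ran through the 6 groups in one order. Their mean levels fell from Fraction 2 through Fraction 3, LZ, Fraction 5 and Fraction 6 to Fraction 7 in 31 of 42 genes. Fraction 2 had the highest mean for 39 genes and Fraction 7 the lowest for 39. LZ, whose gate contains Fractions 2 and 3, was not tested against them. With the LZ mean of each gene set to 100%, the median mitosis gene stood at 141.9% in Fraction 2, 109.5% in Fraction 3, 73% in Fraction 5, 17% in Fraction 6 and 10.2% in Fraction 7. Single genes in Fraction 7 ran from 4.39% for Kif2c, a motor that takes microtubules apart at kinetochores, to 120.7% for Pttg1. The Kif2c share rests on a low mean of 0.675 FPKM in Fraction 7. By limma's F test over the 6 groups 42 of 42 genes were called, where 69.7% of all tested genes were. In that F test Pttg1 passed only narrowly (adjusted p = 0.049), and the next weakest gene was Cdc25b (adjusted p = 0.000157).

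**Figure D1:**
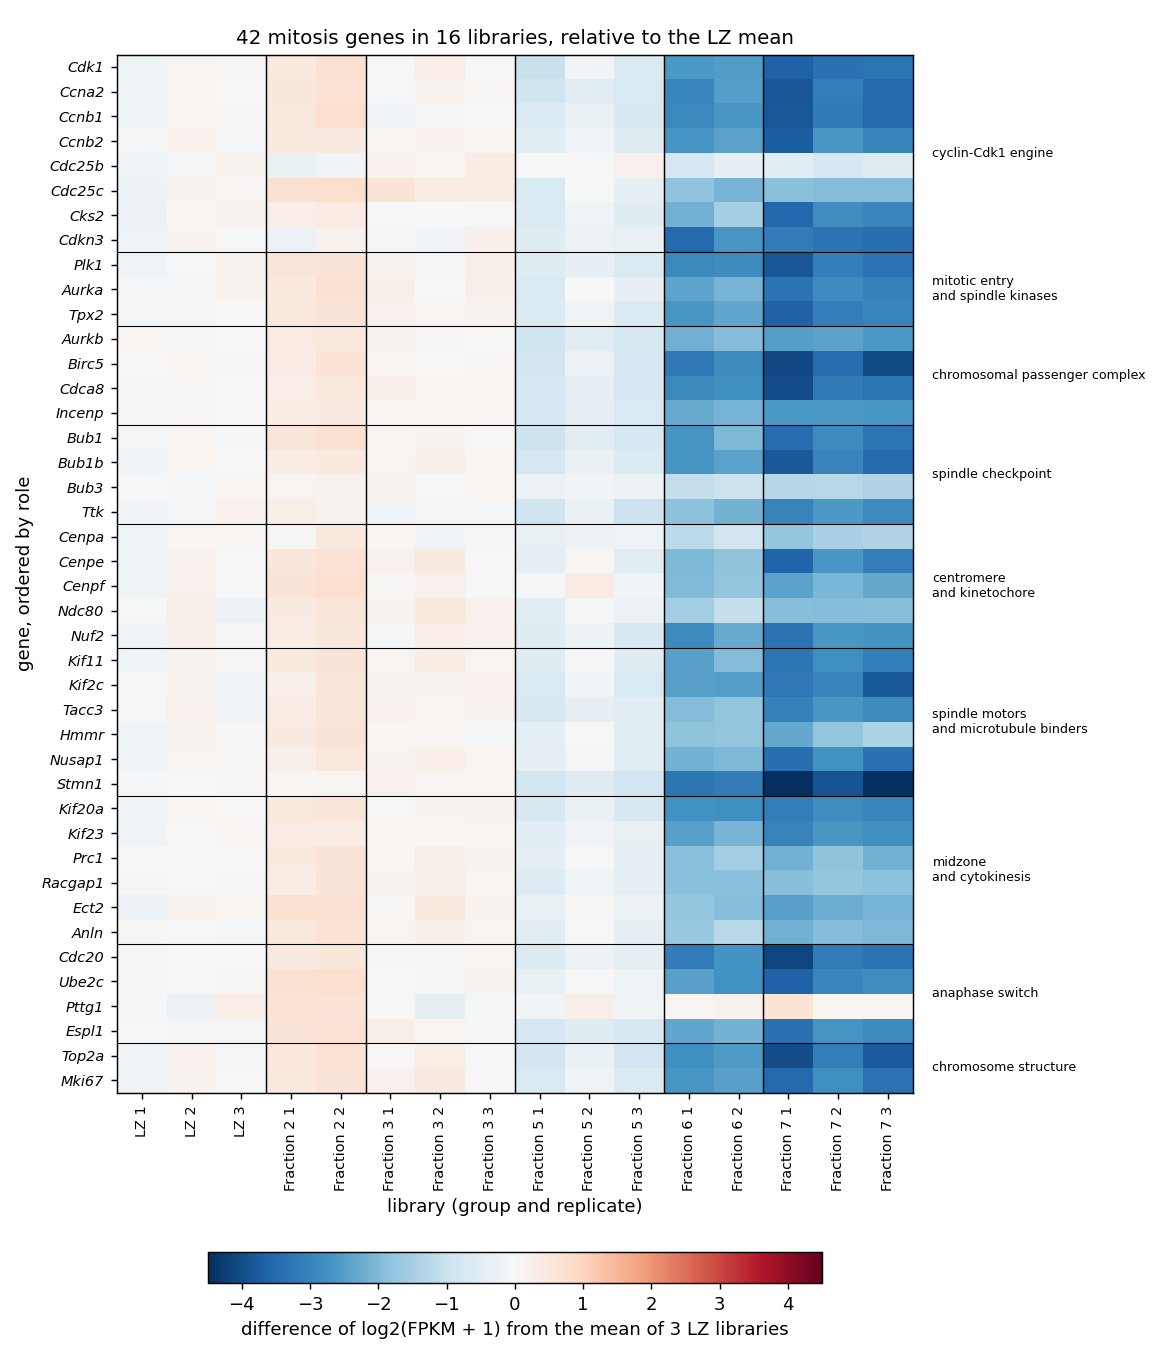
Each row is 1 of the 42 mitosis genes, grouped by role, and each column 1 of the 16 libraries, with colour for the difference of log2(FPKM + 1) from the mean of the 3 LZ libraries (red higher, blue lower). Fraction 2 is mostly pale red, Fraction 5 pale blue, and Fractions 6 and 7 dark blue, with Pttg1, Cdc25b, Bub3 and Cenpa paler than the rest.

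Levels in LZ spanned a wide range. Stmn1, which encodes the microtubule-destabilising protein stathmin, was the most abundant at 418 ± 12.1 FPKM (SD, n = 3), followed by Top2a at 127 ± 14.5 (SD, n = 3). Cdc25c, a phosphatase that activates Cdk1, was the lowest at 5.28 ± 0.789 FPKM (SD, n = 3). No gene was at exactly 0 in any library, and 32 of the 42 were at 1 FPKM or more in all 16. Cdc25c, Ttk and Anln were under 1 FPKM in all 3 libraries of Fraction 7, where the added 1 outweighs the measured value.

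Fraction 2 was compared with Fraction 3 to see how CD69hi and CD69lo light zone cells differ. Mitosis transcripts were higher in Fraction 2 by a median of 0.33 on the log2 scale, with 39 of 42 genes positive, while the median over all tested genes was 0.04. Few of the differences passed the test. Ccnb1, Aurkb, Cenpf, Ube2c and Pttg1 were called higher and Cdc25b lower, that is 5 and 1 of 42, where 9.17% of all tested genes were called higher and 6.45% lower. Both libraries of Fraction 2 lay above all 3 of Fraction 3 in 35 of the 42 genes and in 28.7% of all tested genes. Among all tested genes 1033 were higher and 727 lower, and after quantile normalisation 866 and 1041, with 4 mitosis genes higher and 1 lower.

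Among the cyclin-Cdk1 genes, Ccnb1, which encodes cyclin B1, read 47.2 and 58.6 FPKM in Fraction 2 and 30.8, 32.4 and 33.8 in Fraction 3. The groups did not overlap, and the log2 change was 0.69 (SE 0.17, adjusted p = 0.0179, limma). Cdk1 itself read 28.7 and 34.2 FPKM against 21, 26.2 and 21.3, again without overlap, and its change of 0.44 (SE 0.20) did not pass (adjusted p = 0.158). Cdc25b went the other way, at 44.8 and 51.5 FPKM in Fraction 2 and 63.4, 59.5 and 71.3 in Fraction 3, a change of -0.42 (SE 0.13, adjusted p = 0.0473). It was the 1 mitosis gene with both Fraction 2 libraries below Fraction 3. Cdkn3, a phosphatase that acts on Cdk proteins, read 23.5 and 31.6 FPKM against 29.5, 25.6 and 33.3, and the groups overlapped.

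Aurkb, the kinase of the chromosomal passenger complex that corrects faulty attachments, stood at 71.5 and 77.5 FPKM in Fraction 2 against 61.1, 57.1 and 53.9 in Fraction 3, a change of 0.37 (SE 0.11, adjusted p = 0.0356, limma). Its partners Birc5, Cdca8 and Incenp did not overlap between the groups either but did not pass, with changes of 0.44, 0.24 and 0.28. Cenpf, a large outer kinetochore protein, stood at 12 and 13.6 FPKM against 8.04, 8.77 and 7.57, a change of 0.59 (SE 0.16, adjusted p = 0.0271). Of the anaphase genes, Ube2c read 117 and 120.1 FPKM against 72.3, 75.1 and 79.6, a change of 0.64 (SE 0.19, adjusted p = 0.0363). Pttg1 had the largest change of the 42, from 19.2, 13.4 and 17.9 FPKM in Fraction 3 to 29.2 and 28.9 in Fraction 2, or 0.77 (SE 0.20, adjusted p = 0.0232). None of these 4 called genes overlapped between the groups. The ranges of Stmn1 and Bub3 did overlap, with changes of -0.03 (SE 0.16) and 0.04 (SE 0.07).

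These calls rested on few libraries. Library 2 of Fraction 2 was the higher of the pair for 38 of the 42 genes, against 49.9% of all tested genes. Without it none of the 42 was called higher by limma, with 5 higher at an unadjusted p under 0.05. Of all tested genes 392 were called higher in that fit, in place of 1033. Without any 1 other library of either group 1 to 3 of the 42 were called higher, and 400 to 791 of all tested genes. The call of Cdc25b was lost whichever of the 5 libraries was left out. When only the libraries of these groups were fitted, 16 genes were called higher, Plk1, Bub1, Ccna2 and Cdc20 among them, and Cdc25b was not called.

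Fraction 5 was compared with Fraction 3 and with Fraction 2 to set CD38+ cells with high Bcl6-YFP beside the light zone cells. Mitosis transcripts were lower in Fraction 5 and still abundant. Against Fraction 3, 30 of 42 genes were called lower and none higher, where 19.5% of all tested genes were called lower and 9.99% higher. The median change was -0.58, and -0.03 over all tested genes. In 35 of the 42 genes the 3 libraries of Fraction 5 lay below all 3 of Fraction 3, as in 26.7% of all tested genes. Among all tested genes 1125 were higher and 2197 lower, and after quantile normalisation 1675 and 1664, with 20 mitosis genes lower.

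All genes of 4 roles were called lower: the entry and spindle genes Plk1, Aurka and Tpx2, the 4 chromosomal passenger genes, the 4 checkpoint genes, and Top2a with Mki67, which encodes the proliferation antigen Ki-67. Plk1, a kinase of mitotic entry, read 28.6, 32.1 and 26.3 FPKM in Fraction 5 against 46.6, 43.3 and 48.6 in Fraction 3, a change of -0.66 (SE 0.15, adjusted p = 0.00537) by limma. Incenp, the scaffold of the passenger complex, read 33.6, 43.6 and 35.7 FPKM against 61.5, 62.9 and 61.6, a change of -0.71 (SE 0.08, adjusted p = 4.31e-05). Bub1, a checkpoint kinase at the kinetochore, read 6.70, 9.34 and 7.59 FPKM against 14.6, 15.3 and 13.9, a change of -0.83 (SE 0.17, adjusted p = 0.00317). In these 3 genes no library of Fraction 5 reached the lowest of Fraction 3. The largest change was that of Stmn1, from 481, 445 and 446 FPKM to 228, 284 and 229.9, or -0.89 (SE 0.15, adjusted p = 0.000593).

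The 12 genes that did not pass were Ccnb2, Cdc25b, Cks2 and Cdkn3 among the cyclin-Cdk1 genes, Cenpa, Cenpe and Cenpf of the centromere and kinetochore, the spindle protein Hmmr, the cytokinesis activator Ect2, and Cdc20, Ube2c and Pttg1 among the anaphase genes. Cenpf read 7.06, 10.1 and 6.92 FPKM in Fraction 5 and 8.04, 8.77 and 7.57 in Fraction 3, a change of -0.03 (SE 0.15), and the groups overlapped. Ube2c read 57.5, 72.8 and 62.3 FPKM against 72.3, 75.1 and 79.6, also with overlap, and its change was -0.24 (SE 0.17). Pttg1 was the 1 gene with a positive change, 0.17 (SE 0.18). Separase itself, Espl1, was the 1 anaphase gene called lower, from 16.8, 15.2 and 13.2 FPKM to 7.78, 9.12 and 7.98, a change of -0.78 (SE 0.15, adjusted p = 0.00155) by limma.

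Library 2 of Fraction 5 lay nearest to the light zone groups. Its median mitosis gene was -0.18 from the LZ mean on the log2 scale, against -0.62 and -0.55 in libraries 1 and 3. The same library was highest in its group for 23 of 28 genes of DNA replication. Without it 33 genes were called lower than in Fraction 3, with a median of -0.71. Without library 1 the count was 16, with a median of -0.49. Of all tested genes 2075 and 1556 were called lower in those fits, in place of 2197. The 6 markers of naive and marginal zone B cells summed to 447 to 552 FPKM in Fraction 5 and 341 to 406 in Fraction 3, with 3 called higher, and their part in the mitosis values was not tested.

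Against Fraction 2 the distance was larger. Of the 42 genes 40 were called lower and none higher, with a median of -0.90, where 27.1% of all tested genes were called lower and 16.6% higher. In 41 genes Fraction 5 lay wholly below Fraction 2, as in 35.8% of all tested genes. Without library 2 of Fraction 5 the count called lower was 40 and the median -1.05. This comparison shares the Fraction 5 libraries with the one before. Bub1 had the largest change, from 20.6 and 22.7 FPKM in Fraction 2 to 6.70, 9.34 and 7.59 in Fraction 5, or -1.36 (SE 0.20, adjusted p = 8.69e-05) by limma. Cdkn3, at -0.35 (SE 0.22), and Cdc25b, at 0.29 (SE 0.13), did not pass. Cdc25b was called higher after quantile normalisation (0.49, adjusted p = 0.00424, limma) and after median-ratio scaling (0.37, adjusted p = 0.0318). Among all tested genes 1872 were higher and 3056 lower, and 2713 and 2479 after quantile normalisation.

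Fraction 6 was compared with Fraction 5 to see how Bcl6-YFPlo and Bcl6-YFPhi cells differ among CD38+ Efnb1hi cells. Mitosis transcripts fell in nearly every gene. All but Pttg1 were called lower, 41 of 42, and none higher, where 10.4% of all tested genes were called lower and 7.07% higher. The median change of the 42 was -1.83. In the same number of genes, 41, both libraries of Fraction 6 lay below all 3 of Fraction 5, as in 24.9% of all tested genes. Without library 2 of Fraction 5 the count was 41 and the median -1.67. Marker lists of other cells were read over the same step. The naive and marginal zone B cell markers summed to 639 to 677 FPKM in Fraction 6 and 447 to 552 in Fraction 5, with 4 of 6 called higher. The macrophage and dendritic cell markers summed to 4.19 to 8.05 FPKM against 0.367 to 1.49, with 2 of 3 tested called higher and Cd14 at 0 in both groups. The plasma cell markers summed to 259 to 269 FPKM against 413 to 456, with 1 of 7 called higher and 1 lower, and the T cell markers to 19.8 to 24.4 against 23.9 to 28.1, with Cd3e at 0 in both. The part of these transcripts in the mitosis values was not tested.

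Cdkn3 had the largest change, from 18.7, 23.1 and 22.1 FPKM in Fraction 5 to 1.55 and 3.76 in Fraction 6, or -2.67 (SE 0.22, adjusted p = 2.26e-06) by limma. Cdc20 fell from 38.6, 50.3 and 44.1 FPKM to 5.92 and 8.42, a change of -2.48 (SE 0.22, adjusted p = 5.13e-06). Ube2c, which works with Cdc20 on the anaphase-promoting complex, fell from 57.5, 72.8 and 62.3 FPKM to 12.6 and 9.99, a change of -2.41 (SE 0.19, adjusted p = 1.74e-06). By group means Fraction 5 was 8.04 times as high as Fraction 6 for Cdkn3, 6.19 times for Cdc20 and 5.69 times for Ube2c.

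The cyclin B genes fell by similar amounts, Ccnb1 from 21.6, 26.4 and 19.9 FPKM to 3.68 and 4.63 (-2.19, SE 0.17) and Ccnb2 from 33.9, 43 and 32.1 to 6.66 and 8.05 (-2.15, SE 0.23). Cdk1 fell from 10.0, 19 and 13.1 FPKM to 2.64 and 2.81 (-1.97, SE 0.20). Plk1 fell from 28.6, 32.1 and 26.3 FPKM to 4.74 and 5.07 (-2.34, SE 0.17). In each of these genes the higher library of Fraction 6 lay under the lowest of Fraction 5. Birc5, also known as survivin, had the largest change of the passenger complex, from 46.2, 68.5 and 48.6 FPKM to 7.82 and 10.8 (-2.42, SE 0.20), and Bub1b, which encodes the checkpoint protein BubR1, fell from 22.7, 32.4 and 24.9 to 5.53 and 6.77 (-1.94, SE 0.19).

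Kinetochore genes covered a wide range. Cenpa, the histone that marks centromeres, read 30.9, 33 and 33.5 FPKM against 16.4 and 20.9, a change of -0.77 (SE 0.15, adjusted p = 0.00256) by limma. Nuf2, a microtubule-binding subunit, read 18.3, 23.3 and 16 FPKM against 2.90 and 4.86, a change of -2.06 (SE 0.23). Ndc80, its partner in the same complex, moved by -1.05 (SE 0.17), from 13.2, 18 and 15.7 FPKM to 5.82 and 8.37. All 5 kinetochore genes passed, Cenpa with the smallest change. Of the motors and midzone proteins, Kif20a, which carries passenger proteins to the midzone, fell from 13.2, 17.9 and 13.2 FPKM to 2.55 and 2.43 (-2.16, SE 0.13). Racgap1, a protein of the central spindle, fell from 24.2, 32 and 27.4 FPKM to 9.16 and 9.13 (-1.50, SE 0.11). The called genes with the smallest changes were Cdc25b, Cenpa and Bub3. Bub3 went from 65, 71.4 and 66.2 FPKM to 36.2 and 39 (-0.83, SE 0.07), and Cdc25b from 55.2, 57 and 64.4 to 32.5 and 42.8 (-0.64, SE 0.13).

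**Figure D2:**
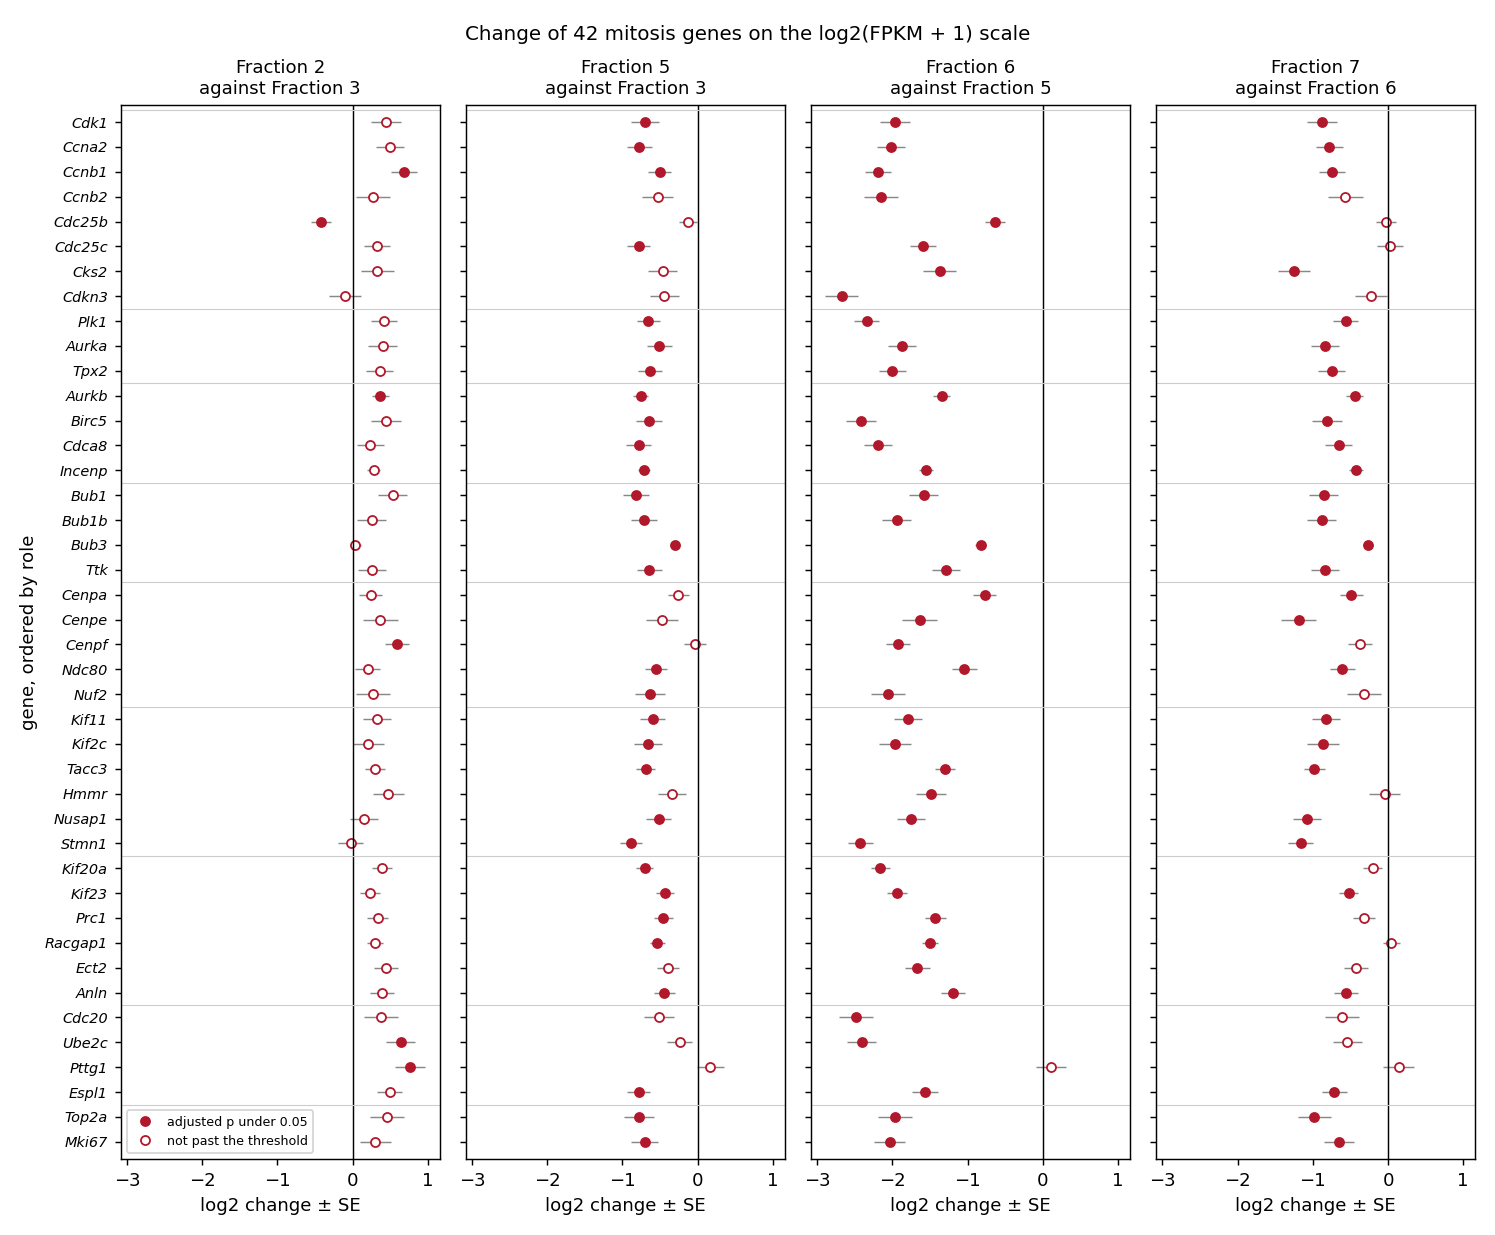
Log2 change of each of the 42 mitosis genes in 4 comparisons, with bars of 1 SE from limma and genes ordered by role. Filled points had an adjusted p under 0.05, 6 of 42 in Fraction 2 against Fraction 3, 30 in Fraction 5 against Fraction 3, 41 in Fraction 6 against Fraction 5 and 28 in Fraction 7 against Fraction 6.

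Fraction 7 was compared with Fraction 6 to see how Efnb1lo and Efnb1hi cells differ among CD38+ Bcl6-YFPlo cells. A further drop was measured in most genes. Of the 42, 28 were called lower and none higher, with a median of -0.61, where 13.9% of all tested genes were called lower and 7.37% higher. In 32 genes all 3 libraries of Fraction 7 lay below both of Fraction 6, as in 28.7% of all tested genes. Among all tested genes 830 were higher and 1563 lower, and 1165 and 1316 after median-ratio scaling, with 25 mitosis genes lower. Without libraries 2 and 3 of Fraction 7, which held more of some plasma cell transcripts, the median was -1.01. That fit has 1 library of Fraction 7 and takes its scatter from the remaining groups.

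Cks2, a small subunit of Cdk complexes, had the largest change, from 26 and 41.5 FPKM in Fraction 6 to 9.57, 16.3 and 14.8 in Fraction 7, or -1.25 (SE 0.22, adjusted p = 0.000961) by limma. Cenpe, a kinetochore motor that brings chromosomes to the spindle equator, fell from 3.89 and 4.63 FPKM to 0.636, 2.23 and 1.31, a change of -1.19 (SE 0.24, adjusted p = 0.00261). Stmn1 fell from 43.4 and 46.6 FPKM to 15.5, 27 and 17.7, a change of -1.16 (SE 0.16, adjusted p = 0.000198). In these genes Fraction 7 lay below both libraries of Fraction 6, and library 1 was its lowest. The spindle kinases, the passenger complex, the checkpoint and the pair of Top2a and Mki67 were again all called lower.

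For 14 genes no difference between Fraction 6 and Fraction 7 passed the test. Among them, Racgap1 read 9.16 and 9.13 FPKM in Fraction 6 and 8.79, 10.3 and 9.41 in Fraction 7, a change of 0.05 (SE 0.11). Hmmr read 4.12 and 4.25 FPKM against 2.64, 4.23 and 5.65, a change of -0.04 (SE 0.20). Cdkn3, which had the largest change from Fraction 5 to Fraction 6, read 1.55 and 3.76 FPKM against 2.27, 1.92 and 1.76, a change of -0.23 (SE 0.22). In all 3 genes the groups overlapped. Of the 6 midzone and cytokinesis genes, the motor Kif23 and the scaffold Anln were called lower, and of the 4 anaphase genes Espl1. Cdc20, Ube2c and Ccnb2 did not pass, with changes of -0.61, -0.54 and -0.57, but these depended on the libraries of Fraction 7. With library 1 alone for Fraction 7 their changes were -1.22, -1.06 and -1.17. Of the 14 genes, Racgap1, Cdc25c and Pttg1 had positive changes in the fit of all libraries.

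This comparison leaned on the pair of Fraction 6 libraries. Library 2 of Fraction 6 was the higher one for 35 of the 42 genes, against 57.7% of all tested genes. Without it 6 of the 42 were called lower by limma, with 26 at an unadjusted p under 0.05. A fit of these groups alone called 7 lower, with 28 at an unadjusted p under 0.05. Of all tested genes 839 and 753 were called lower in those fits, in place of 1563.

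Fraction 7 was also compared with LZ, the span from the whole light zone gate to mature memory cells. All genes but Pttg1 were called lower, 41 of 42, and none higher, where 38.0% of all tested genes were called lower and 24.1% higher. The groups lay wholly apart in the same number of genes, 41, and in 38.9% of all tested genes in that direction. The median change was -3.05 against -0.10 for all tested genes. Quantile normalisation moved the median of all genes to 0.015 and that of the mitosis genes to -2.93, with 3464 genes higher and 3467 lower in place of 2718 and 4279. Without libraries 2 and 3 of Fraction 7, 41 genes were called lower, with a median of -3.29, again with 1 library for the group and the scatter of the remaining groups.

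Stmn1 had the largest change, from 407, 417 and 431 FPKM in LZ to 15.5, 27 and 17.7 in Fraction 7, or -4.35 (SE 0.15, adjusted p = 4.87e-11) by limma. Birc5 followed at -3.84 (SE 0.18), from 81.3, 87.4 and 77 FPKM to 3.95, 6.78 and 4.07. Top2a fell from 116, 143 and 121 FPKM to 6.95, 13.6 and 8.44 (-3.63, SE 0.20). The lowest LZ library was several times as high as the highest Fraction 7 library in each. Mki67 fell from 96.7, 120.5 and 104 FPKM to 8.57, 14.8 and 9.89 (-3.19, SE 0.18), and Cdc20 from 62.5, 58.8 and 59.1 to 2.46, 5.96 and 5.12 (-3.53, SE 0.20). By group means LZ was 20.8 times as high as Fraction 7 for Stmn1, 20.3 times for Cdk1, 22.8 times for Kif2c and 13.1 times for Top2a. The ratios of Kif2c and Cdk1 rest on low values in Fraction 7. Kif2c read 0.752, 1.08 and 0.191 FPKM there, and Cdk1 0.744, 1.12 and 1.25.

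Transcripts of most of these genes could still be measured in Fraction 7, where 36 of 42 reached 1 FPKM in at least 2 libraries. Aurkb read 8.97, 9.61 and 8.36 FPKM, Incenp 8.91, 8.83 and 8.53, and Racgap1 8.79, 10.3 and 9.41. The median mitosis gene was -3.28 from the LZ mean in library 1, -2.68 in library 2 and -2.94 in library 3. Library 1 was the lowest of the group for 32 of the 42 genes. It was the highest for 5 of the 42, against 56.8% of all tested genes. Xbp1, a plasma cell regulator, read 34, 84.9 and 81.3 FPKM in these libraries. The 7 plasma cell markers together summed to 340.4 to 622 FPKM in Fraction 7, 259 to 269 in Fraction 6 and 398 to 464 in LZ. Of the 7, 6 were called higher in Fraction 7 than in Fraction 6 and 4 higher than in LZ, and none lower. Of all tested genes 7.37% and 24.1% were called higher in those comparisons. The 7 macrophage and dendritic cell markers summed to 14.3 to 18 FPKM in Fraction 7 and 0.137 to 2.88 in LZ, mostly Itgam, at 12.8, 8.22 and 12.5 in Fraction 7 and at most 0.322 in LZ, with Cd14 at 0 in Fraction 7. The 6 T cell markers summed to 6.81 to 9.62 FPKM in Fraction 7 and 29.5 to 36.1 in LZ, with Cd3e at 0 in both, and the 6 markers of naive and marginal zone B cells to 600.1 to 708 and 409.8 to 415. The part of these transcripts in the mitosis values was not tested.

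**Figure D3:**
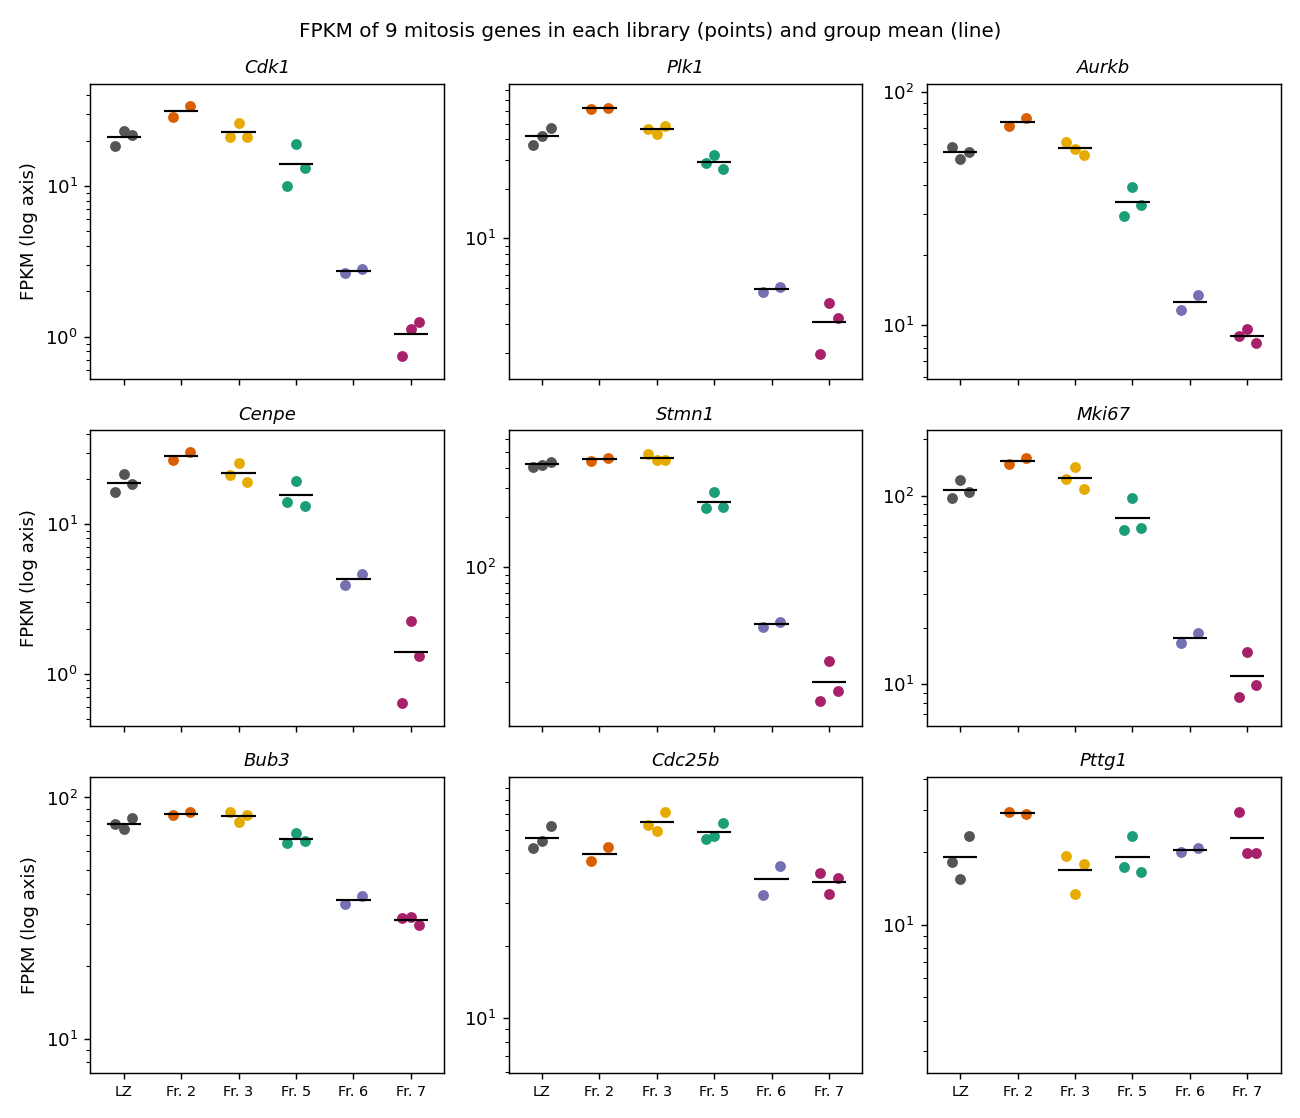
FPKM of 9 mitosis genes on a log axis that spans its own range in each panel, with 1 point per library and a line at each group mean. Cdk1, Plk1, Aurkb, Cenpe, Stmn1 and Mki67 step down at Fraction 6 and again at Fraction 7, Bub3 and Cdc25b fall less, and the Pttg1 points of all groups lie between 13.4 and 29.2 FPKM.

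The drop from Fraction 5 to Fraction 6 was then tested against the drops on either side, as differences between log2 changes in the same fit. These tests were added after the values were seen. The fall from Fraction 5 to Fraction 6 was larger than that from Fraction 3 to Fraction 5 in 27 of 42 genes, with a median difference of -1.23, where 1.62% of all tested genes passed in that direction and 2.71% in the other. Among all tested genes 305 were higher and 183 lower, and 333 and 350 after quantile normalisation, with 30 mitosis genes passing. Cdkn3 differed by -2.23 (SE 0.35, adjusted p = 0.00407), Ube2c by -2.17 (SE 0.31, adjusted p = 0.00222) and Cenpf by -1.89 (SE 0.26, adjusted p = 0.00219), by limma. Cdkn3, Cenpf and Ube2c had shown no called change from Fraction 3 to Fraction 5. Aurkb (-0.59, SE 0.18) and Cenpa (-0.52, SE 0.24) did not pass. Without library 2 of Fraction 5 the count was 12 and the median -0.92, without library 1 of Fraction 6 the count was 13, and without library 1 of Fraction 3 it was 17. Of all tested genes 82, 108 and 111 were called in that direction in those fits, in place of 183.

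The next drop, from Fraction 6 to Fraction 7, was smaller than the one before it in 21 of 42 genes, with a median difference of 1.12, where 1.52% of all tested genes passed in that direction and 2.17% in the other. Cdkn3 (2.45, SE 0.39), Cdc20 (1.87, SE 0.40) and Ube2c (1.87, SE 0.34) were among those that passed, and these tests share Fractions 5 and 6 with those above. Among all tested genes 171 were higher and 245 lower, and 265 and 250 after median-ratio scaling. Without library 1 of Fraction 6 the count was 2, without library 2 it was 5, without library 2 of Fraction 5 it was 16, and with library 1 alone for Fraction 7, its scatter taken from the remaining groups, it was 14. A fit of Fractions 5, 6 and 7 alone called 3. Of all tested genes 39 were called in that direction in that fit, in place of 171. Without library 1 of Fraction 6 it was 22 of all tested genes, and without library 2 it was 53. At an unadjusted p under 0.05 by limma the mitosis genes in these fits numbered 31, 24 and 34.

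Genes of DNA replication, 28 in all, were set beside the mitosis genes as markers of S phase. Against Fraction 3, 26 of 28 were called lower in Fraction 5, with a median of -1.04, beside 30 of 42 and -0.58 for mitosis. From Fraction 5 to Fraction 6, 25 of 28 were called lower, with a median of -1.12 beside -1.83 for mitosis. Lig1, a DNA ligase, was the 1 S phase gene whose fall into Fraction 6 was called larger than that into Fraction 5, and the median difference over the 28 was -0.07, beside -1.23 for mitosis. Gins1, of the replicative helicase, went from 25.4 ± 4.11 FPKM (SD, n = 3) in Fraction 3 to 8.05 ± 0.930 (SD, n = 3) in Fraction 5, a change of -1.54 (adjusted p = 0.000388, limma). Whether the lists differ from each other was not tested. From LZ to Fraction 7 the S phase median was -2.70, with 27 of 28 called lower. Of all tested genes 19.5% were called lower in Fraction 5 than in Fraction 3, 10.4% into Fraction 6 and 38.0% from LZ to Fraction 7. The medians over all tested genes in those comparisons were -0.03, -0.002 and -0.10. For a larger fall into Fraction 6 than into Fraction 5, 1.62% of all tested genes passed. Without library 2 of Fraction 5 the S phase counts were 26 against Fraction 3 and 25 into Fraction 6, with medians of -1.17 and -0.99, and 0 of the 28 passed limma for a larger fall into Fraction 6, with 2 at an unadjusted p under 0.05. With library 1 alone for Fraction 7, 28 of 28 were lower than in LZ, with a median of -2.73. These S phase counts without libraries were added after the values were seen.

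**Figure D4:**
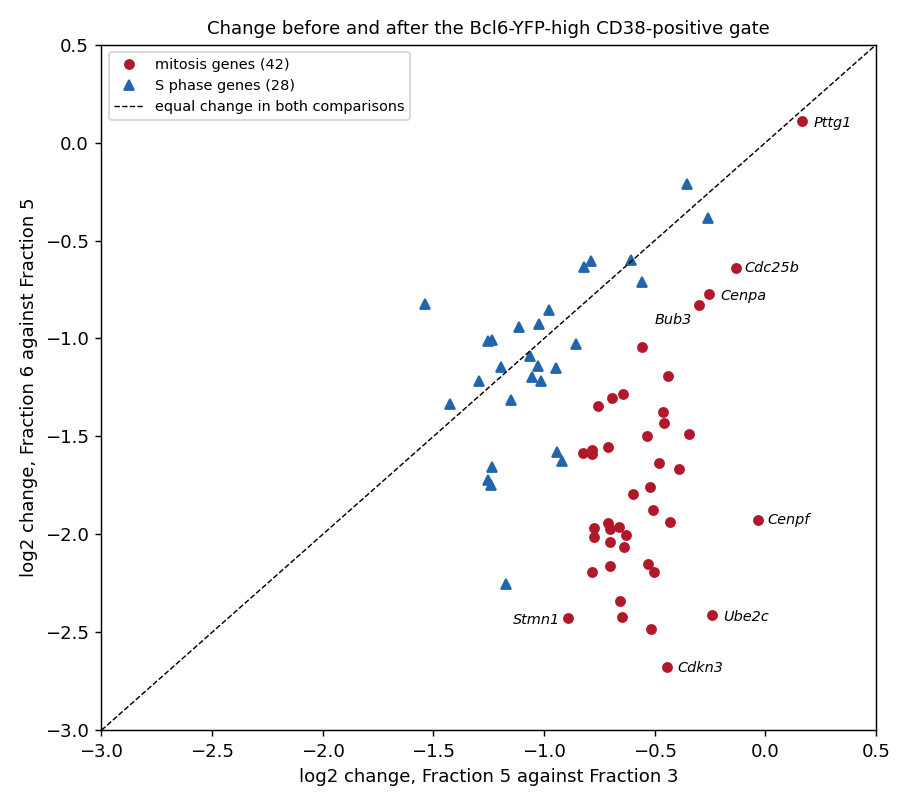
Log2 change from Fraction 3 to Fraction 5 (horizontal) and from Fraction 5 to Fraction 6 (vertical) for 42 mitosis genes (circles) and 28 S phase genes (triangles), with a dashed line where both changes are equal. All 42 mitosis genes lie below the line, Pttg1 close to it, and S phase genes lie on both sides of it, while both axes share the Fraction 5 libraries.

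Pttg1, whose product is destroyed at anaphase to free separase, did not share the order of the others. It read 18.2, 15.5 and 23.3 FPKM in LZ, 29.2 and 28.9 in Fraction 2, 19.2, 13.4 and 17.9 in Fraction 3, 17.3, 23.3 and 16.6 in Fraction 5, 20.0 and 20.8 in Fraction 6 and 29.2, 19.9 and 19.8 in Fraction 7. The range of LZ overlapped those of Fractions 3, 5, 6 and 7, and library 1 of Fraction 7 stood at the level of Fraction 2. Against LZ, Fraction 7 differed by 0.25 (SE 0.18, adjusted p = 0.24) by limma. Pttg1 was called higher after quantile normalisation (0.50, adjusted p = 0.0177) and when library 1 stood alone for Fraction 7 (0.61, adjusted p = 0.0495), a fit in which its scatter is taken from the remaining groups. Espl1, the separase it restrains, fell from 14, 14.2 and 12.9 FPKM in LZ to 0.445, 1.36 and 1.03 in Fraction 7 (-2.95, SE 0.15).

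Cdc25b read 50.9, 54.3 and 62.9 FPKM in LZ, 44.8 and 51.5 in Fraction 2, 63.4, 59.5 and 71.3 in Fraction 3, 55.2, 57 and 64.4 in Fraction 5, 32.5 and 42.8 in Fraction 6 and 39.8, 32.6 and 38 in Fraction 7. By group means it was lowest in Fractions 6 and 7, and next lowest in Fraction 2, where most other mitosis genes had their highest mean. Its relative Cdc25c, which acts on the same kinase, read 4.39, 5.90 and 5.56 FPKM in LZ, 9.16 and 9.91 in Fraction 2 and 0.706, 0.631 and 0.613 in Fraction 7. From LZ to Fraction 7 the change was -0.59 (SE 0.12, adjusted p = 0.000626) for Cdc25b and -1.92 (SE 0.15, adjusted p = 1.26e-07) for Cdc25c, by limma.

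After Cdc25b, Bub3 and Cenpa had the smallest changes among the genes called over that span. Bub3 read 77.7, 74.1 and 82 FPKM in LZ and 31.5, 32.1 and 29.6 in Fraction 7, a change of -1.30 (SE 0.06, adjusted p = 7.63e-10) by limma. Its checkpoint partner Bub1 went from 12.8, 15.2 and 13.2 FPKM to 0.363, 1.08 and 0.501 (-3.18, SE 0.17), and Bub1b from 36, 42.8 and 40.7 to 1.99, 4.23 and 2.68 (-3.40, SE 0.17). Cenpa read 33.7, 41.2 and 42.6 FPKM in LZ and 10.9, 13.6 and 14.6 in Fraction 7 (-1.52, SE 0.13). No library of Fraction 7 reached LZ in any of these 4 genes, and the difference between genes was not tested. Over all comparisons with Fractions 5, 6 or 7 as the later group no mitosis gene was called higher by limma, and at an unadjusted p under 0.05 the count was 0 in each but Fraction 5 against Fraction 2, where it was 1, Cdc25b.

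Other genes of the same machinery were counted from lists written for this work. Of 35 further kinetochore and checkpoint genes, 7 were called higher in Fraction 2 than in Fraction 3, where 9.17% of all tested genes were. Of the same genes 27 were lower in Fraction 5 than in Fraction 3, 26 lower in Fraction 6 than in Fraction 5, 19 lower in Fraction 7 than in Fraction 6 and 34 lower in Fraction 7 than in LZ, and none passed limma in the opposite direction. Of all tested genes 19.5%, 10.4%, 13.9% and 38.0% were called lower in those comparisons, and these shares apply to the other lists as well. Trip13, which takes checkpoint complexes apart, stood at 19.8 ± 0.922 FPKM (SD, n = 2) in Fraction 2 and 11.8 ± 0.577 (SD, n = 3) in Fraction 3, a change of 0.70 (adjusted p = 0.0101, limma). Of 32 further spindle and cytokinesis genes the counts in the same order were 5 higher, then 21, 30, 19 and 32 lower. Ckap2l, a spindle protein, went from 15.6 ± 3.91 FPKM (SD, n = 3) in Fraction 5 to 2.25 ± 0.355 (SD, n = 2) in Fraction 6, a change of -2.33 (adjusted p = 4.24e-07, limma). Of 8 condensin genes, which encode the complex that compacts chromosomes, none passed between Fractions 2 and 3, and 7, 8, 6 and 8 were lower in the later comparisons. The condensin subunit Ncaph went from 37.2 ± 2.88 FPKM (SD, n = 3) in LZ to 2.74 ± 0.773 (SD, n = 3) in Fraction 7, a change of -3.37 (adjusted p = 1.95e-10, limma).

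Regulators of mitotic transcription moved in both directions. Mybl2 read 53.7 and 53.2 FPKM in Fraction 2 and 36.7, 35.2 and 29.3 in Fraction 3, a change of 0.65 (SE 0.17, adjusted p = 0.0185) by limma. It stood at 13.5, 18.2 and 13.9 FPKM in Fraction 5 and 7.32 and 8.49 in Fraction 6, and the change between those groups was -0.85 (SE 0.17). Foxm1 read 27.2 and 31.6 FPKM in Fraction 2 and 23.8, 26 and 25.9 in Fraction 3, a change of 0.21 (SE 0.15, adjusted p = 0.375), which did not pass. From Fraction 5, at 14, 15.4 and 15.6 FPKM, to Fraction 6, at 4.78 and 4.60, it fell with a change of -1.49 (SE 0.15, adjusted p = 1.18e-05). Against LZ, Fraction 7 was lower in both, with changes of -2.96 (SE 0.13) for Foxm1 and -3.19 (SE 0.15) for Mybl2. E2f4, the repressive E2F of DREAM, went from 68.7 ± 3.09 FPKM (SD, n = 3) in LZ to 37.6 ± 2.13 (SD, n = 3) in Fraction 7, a change of -0.85 (SE 0.08). Rbl2, a pocket protein of the same complex, rose from 9.20 ± 0.990 FPKM (SD, n = 3) to 15.8 ± 1.33 (SD, n = 3), a change of 0.72 (adjusted p = 1.16e-05, limma).

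Of the brakes on Cdk activity, Cdkn1b, which encodes a Cdk inhibitor found in resting lymphocytes, rose as the mitosis genes fell. It read 7.56, 8.66 and 11 FPKM in Fraction 3, 18.3, 20.7 and 18 in Fraction 5, 26.8 and 32.8 in Fraction 6 and 48.2, 43.4 and 38.1 in Fraction 7. Each of these steps passed, with changes of 1.00, 0.62 and 0.52 in that order (adjusted p = 9.57e-05, 0.00902 and 0.02, limma). Wee1, a kinase that holds Cdk1 inactive, fell over 2 steps, from 19.3 ± 1.07 FPKM (SD, n = 3) in Fraction 3 to 11 ± 0.631 (SD, n = 3) in Fraction 5 (-0.76, SE 0.08) and 7.66 ± 0.262 (SD, n = 2) in Fraction 6 (-0.47, SE 0.09). In Fraction 7 it read 8.44 ± 0.987 (SD, n = 3), and the change from Fraction 6 did not pass (0.12, SE 0.09, adjusted p = 0.429, limma), whereas Cdk1 was called lower there (-0.88, SE 0.20).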

How the data were processed

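RNA from sorted cells was purified with TRIzol and made into libraries with a NEBNext Ultra kit, per the labels' protocols. That kit does not mark strand, so a gene and an antisense gene over it cannot be told apart. Per the submitters' processing notes, the authors used TopHat2 2.0.8, Cufflinks 2.1.1 and the build mm9. The table deposited by the authors holds FPKM per gene. How reads of near-identical gene copies were divided is not given in the sources used here. The 1 unnamed row was not used. Promoters are on GRCm38.p6, matched to genes by symbol alone.

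Means of 6 groups were fitted over all 16 libraries with limma 3.58.1 (R 4.3.3) and a variance trend, on log2(FPKM + 1) of genes at 1 FPKM or more in 2 or more libraries. Benjamini-Hochberg adjustment ran over 11266 genes in each comparison, with a threshold of 0.05. The fit was also run on data simulated from its own estimates of spread, with libraries drawn independently. Such data cannot show how the differences between libraries described above affect the calls. FPKM do not give the depth in reads, so the number of libraries limits the precision. Same-numbered libraries did not deviate together, and the fit had no block. Alternatives were quantile and median-ratio scaling, another pseudocount (0.1), all genes or a filter of 5 FPKM, only the groups compared, a replicate block, array weights and leaving out libraries. The 42 genes, their roles and the other lists were chosen with earlier results of these data known. By rule the text names genes past the threshold with the largest change such that each role is represented, up to 3 such genes of each other list, and Foxm1, Mybl2, Rbl2, E2f4, Wee1 and Cdkn1b.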

Additional observations from a re-analysis of the deposited data

How the results depend on the processing

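Every count of called mitosis genes was recomputed under each alternative. In Fraction 2 against Fraction 3 the higher calls (5) became 3 with a pseudocount of 0.1, 1 with no filter, 16 with only the groups compared, 9 with array weights and 9 with a replicate block, and 0 to 3 when 1 library was left out. The lower call (1, Cdc25b) became 0 with no filter, with only the groups compared, with the replicate block and whenever 1 library was left out. In Fraction 5 against Fraction 3 the lower calls (30) ranged from 16 to 33 over left-out libraries. In Fraction 5 against Fraction 2, 1 gene, Cdc25b, was higher after quantile normalisation and 1 after median-ratio scaling, in place of 0. In Fraction 7 against Fraction 6 the lower calls (28) became 7 with only the groups compared and ranged from 6 to 30 over left-out libraries. In Fraction 7 against LZ, 1 gene, Pttg1, was higher after quantile normalisation and 1 without libraries 2 and 3 of Fraction 7, in place of 0. The larger fall from Fraction 5 to Fraction 6 than from Fraction 3 to Fraction 5 (27 genes) became 16 with no filter and ranged from 12 to 23 over left-out libraries. The smaller fall from Fraction 6 to Fraction 7 (21 genes) became 16 with a pseudocount of 0.1 and 14 with no filter. It became 3 with only the groups compared and ranged from 2 to 26 over left-out libraries. Fits with fewer libraries have a less certain spread, and the no-filter fit tested 20868 genes. The causes of the shifts in these counts were not tested.

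The 41 lower calls in Fraction 6 against Fraction 5, the 41 in Fraction 7 against LZ and the 42 of the test over all groups stayed within 1.5 times under every alternative run. Of 3347 refits of 234 single calls of a gene, 371 lost the call and 0 changed direction. Same-numbered libraries of different groups correlated in their deviations from the group means at -0.184 to 0.155 (36 pairs, 5 over 0.1), so the numbers were not taken to pair libraries, and the block changed no count by over 1.5 times other than those of Fraction 2 against Fraction 3.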

Other observations

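Machinery that serves mitosis together with other stages of the cell cycle was counted from LZ to Fraction 7. Of 16 genes of the anaphase-promoting complex and its partners, 4 were lower in Fraction 6 than in Fraction 5 and 15 lower in Fraction 7 than in LZ, where the median change was -0.55. Of all tested genes 10.4% were lower in the first of these comparisons, and 38.0% were lower and 24.1% higher in the second. Ube2s, the enzyme that extends ubiquitin chains on this complex, went from 171 ± 15.7 FPKM (SD, n = 3) in LZ to 40.0 ± 1.73 (SD, n = 3) in Fraction 7, a change of -2.07 (adjusted p = 1.62e-10, limma). Fzr1, the activator that keeps the complex on after mitosis, went from 46.8 ± 2.80 FPKM (SD, n = 3) to 21.7 ± 2.1 (SD, n = 3), a change of -1.08 (adjusted p = 2.65e-08, limma).

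Of 10 cohesin genes, 8 were lower and 1 higher in Fraction 7 than in LZ, with a median of -0.77. Cdca5, which encodes sororin, the protector of cohesion between sister chromatids, changed by -3.56 (adjusted p = 8.82e-10, limma) and the ring subunits Smc1a and Smc3 by -1.30 and -1.21. The 1 higher gene was the cohesin loader Nipbl (0.47), named after its value was seen. Of 13 E2F and pocket protein genes, 10 were lower and 2 higher over the same span. E2f8, a repressor of the E2F family, went from 25 ± 0.798 FPKM (SD, n = 3) to 0.888 ± 0.241 (SD, n = 3), a change of -3.79 (adjusted p = 5.67e-12, limma). The higher genes were the pocket proteins Rb1 (1.71) and Rbl2 (0.72), Rb1 named after its value was seen. Of 13 brakes on mitotic entry and exit, 9 were lower and 1, Cdkn1b, was higher. These counts stand beside the same 38.0% lower and 24.1% higher among all tested genes.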
